A study of Saccharomyces cerevisiae with 2 samples.

Results

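The nuclear genes for the mitochondrial respiratory chain and ATP synthase were followed in budding yeast, Saccharomyces cerevisiae, after a shift to high salt. The set holds 36 of the 6868 features on the array. Membership was defined by the function of the encoded protein and not by a threshold on the ratios, but the set was drawn up with earlier results of these data known. It comprises 3 NADH dehydrogenases, 4 subunits of succinate dehydrogenase, 9 of complex III, 7 of complex IV and 13 of ATP synthase. All 36 were found on both arrays under their systematic names and none was listed at 0, so every count below runs over all 36, and no filter on low values was applied.

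Both arrays compared salt-stressed with unstressed cells of strain BY4742, a haploid laboratory yeast, with the genotype WT his3kan in both channels. Stressed cells had 60 min of 0.7 M NaCl on 1 array and 30 min on the other, and the unstressed cells had no salt. All cultures were grown in synthetic complete medium, and labelled cDNA made from total RNA was hybridised to 2-colour tiling arrays. Each value is a log2 ratio within an array, so a value of 1 is 2-fold. With 1 array per time there is no replicate error and no test, and differences are described by size alone, at 2-fold and at 1.5-fold (a log2 ratio of 0.58). The dyes ran the same way on both arrays, so dye and salt cannot be told apart, nor can salt and time in culture, because the titles put the unstressed cells at the start. The labels name the unstressed channel differently on each array and do not say whether both used the same unstressed RNA. A ratio carries no level of its own, so the labelled cell type could not be checked against its markers. In a bulk culture, a change in fewer cells and a smaller change in every cell cannot be told apart.

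Neither the labels nor the file says which channel is the numerator, and the ratio was read as stressed over unstressed, the likely direction. This reading rests on a list of 12 textbook salt-induced genes, such as STL1 and CTT1, all of which had ratios above 0 at both times (0.34 to 6.53 at 60 min and 2.23 to 8.32 at 30 min). If the ratio runs the other way, every "higher" and "lower" below is exchanged. Values on the 60 min array were less spread (SD over features 0.71) than those on the 30 min array (SD 1.33), which bears on each comparison of the times.

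Yeast has no proton-pumping complex I. Electrons from NADH enter the chain through single-subunit dehydrogenases in the inner mitochondrial membrane, and electrons from succinate enter through succinate dehydrogenase. Both hand them to ubiquinone. Complex III passes them on to cytochrome c and complex IV to oxygen, and ATP synthase makes ATP with the proton gradient that complexes III and IV build up. The genes are known to be held low on glucose and to be activated by the Hap2/3/4/5 complex when cells respire.

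Most genes of the set for electron entry and complex III were at least 2-fold higher at 30 min. Its complex IV and ATP synthase genes lay within 2-fold at both times in the values as deposited. The set leaves out some complex IV subunit genes. Of these, COX26 (1.71 at 60 min and 3.65 at 30 min) passed 2-fold at both times. COX5B did at 30 min (1.31), and COX5A did at neither time. At 60 min 1 of the 36 genes was at least 2-fold higher and none was 2-fold lower, where 6.67% of all features were 2-fold higher and 4.32% were 2-fold lower. At 30 min 12 of 36 were at least 2-fold higher and none was 2-fold lower, against 15.8% and 17.3% of all features. At the 1.5-fold size, 6 genes were higher and none lower at 60 min (14.3% and 13.8% of all features), and 15 were higher and 1 lower at 30 min (26.6% of all features in each direction). Most values were small and positive. Ratios were above 0 for 33 of 36 genes at 60 min (49.4% of all features) and for 31 of 36 at 30 min (49.5%). The median over the 36 genes was 0.33 at 60 min (interquartile range over genes 0.21 to 0.44) and 0.49 at 30 min (0.25 to 1.20). Both array medians over all features were 0.

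**Figure D1:**
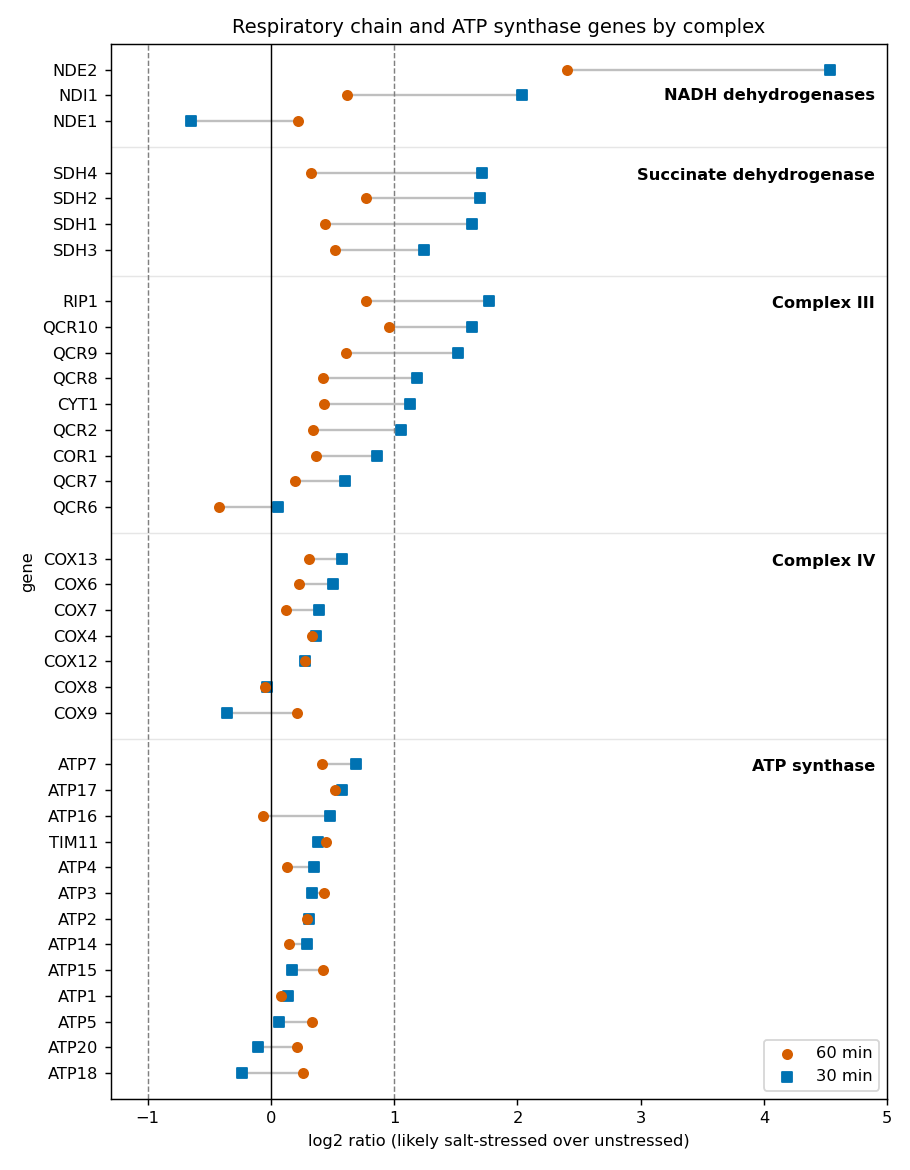
Log2 ratio of each of the 36 genes (x axis, likely salt-stressed over unstressed cells) at 60 min (circles) and 30 min (squares), 1 array each, grouped by complex and sorted by the 30 min value. Dashed lines mark 2-fold. NDE2 reaches 4.54 at 30 min, and the 4 succinate dehydrogenase genes lie between 1.24 and 1.71 at 30 min. All 20 complex IV and ATP synthase genes of the set lie between the dashed lines at both times, as deposited.

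The 2-fold calls at 30 min were unevenly placed along the chain. Of the 16 genes for NADH dehydrogenases, succinate dehydrogenase and complex III, 12 were at least 2-fold higher (15.8% of all features), with a median of 1.38. Of the 20 genes for complex IV and ATP synthase none was 2-fold from 0 at either time (11.0% of all features were at 60 min and 33.1% at 30 min), and their 30 min median was 0.32. The count of 0 at 60 min held when the 60 min array was rescaled to the SD of the 30 min array, but not when it was rescaled to its median absolute deviation, where ATP17 came to 1.05. The ranges of these groups overlapped at 30 min, because NDE1, QCR6 and QCR7 lay within the range of the complex IV and ATP synthase genes (-0.36 to 0.69) or below it. At 60 min the medians lay closer together, 0.44 over the 16 genes and 0.27 over the 20. The cut into groups of 16 and 20 genes was not planned and follows the 30 min medians of the complexes. Their contrast is therefore a description.

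The NADH dehydrogenases differed most among themselves. NDE2 (YDL085W), which oxidises cytosolic NADH at the outer face of the inner membrane, had 2.40 at 60 min (5.29-fold) and 4.54 at 30 min (23.2-fold). It was the highest of the 36 genes at both times and stood at rank 69 of the 6868 features at 60 min and rank 40 at 30 min. NDI1 (YML120C), which oxidises NADH on the matrix side, had 0.61 at 60 min and 2.03 at 30 min (4.09-fold), the second highest value of the set at 30 min. NDE1 (YMR145C), the paralog of NDE2 at the same face of the membrane, had 0.22 at 60 min and -0.65 at 30 min, the lowest value of the set at 30 min. The paralogs thus lay 2.18 log2 units apart at 60 min and 5.19 at 30 min, with NDE2 above NDE1 each time.

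Succinate dehydrogenase is the enzyme shared by the citrate cycle and the respiratory chain. All 4 of its genes were at least 2-fold higher at 30 min (15.8% of all features) and none was at 60 min (6.67% of all features). SDH1 (YKL148C), the flavoprotein that binds succinate, had 0.44 at 60 min and 1.63 at 30 min (3.09-fold). SDH2 (YLL041C), the iron-sulphur subunit, had 0.77 at 60 min and 1.69 at 30 min. Of the membrane anchors, SDH3 (YKL141W) had 0.52 at 60 min and 1.24 at 30 min, and SDH4 (YDR178W) had 0.32 at 60 min and 1.71 at 30 min (3.28-fold). Catalytic and anchor subunits overlapped at both times. The count of 0 at 60 min depended on the array scale, since SDH2 passed 2-fold when the SD was matched and SDH2 and SDH3 did when the median absolute deviation was. Of all features, 15.7% were 2-fold higher when the SD was matched and 16.8% when the median absolute deviation was.

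In complex III 6 of 9 genes were at least 2-fold higher at 30 min (15.8% of all features) and none at 60 min (6.67% of all features). The subunits that carry electrons were among them. RIP1 (YEL024W), the Rieske iron-sulphur protein, had 0.77 at 60 min and 1.77 at 30 min (3.41-fold), and CYT1 (YOR065W), cytochrome c1, had 0.43 at 60 min and 1.13 at 30 min. The core proteins lay on either side of the threshold at 30 min and close to each other at 60 min. COR1 (YBL045C) had 0.36 at 60 min and 0.86 at 30 min, and QCR2 (YPR191W) had 0.34 at 60 min and 1.05 at 30 min.

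The small subunits spread over the widest range within complex III. QCR10 (YHR001W-A) had 0.96 at 60 min, the highest value of the set after NDE2, and 1.63 at 30 min. QCR9 (YGR183C) had 0.61 at 60 min and 1.52 at 30 min, and QCR8 (YJL166W), which lies next to cytochrome b, had 0.43 at 60 min and 1.18 at 30 min. QCR7 (YDR529C), another neighbour of cytochrome b, had 0.20 at 60 min and 0.60 at 30 min. QCR6 (YFR033C), the acidic subunit sometimes called the hinge protein, stood apart with -0.42 at 60 min, the lowest value of the set, and 0.06 at 30 min. The other 8 subunits all had ratios above 0 at both times. RIP1, QCR9 and QCR10 passed 2-fold at 60 min under either rescaling, so the count of 0 in complex III at 60 min was lost too. The share of all features this high was 15.7% when the SD was matched and 16.8% when the median absolute deviation was.

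As deposited, none of the 7 complex IV genes reached 1.5-fold in either direction, where 28.1% of all features did at 60 min and 53.2% did at 30 min. This count of 0 did not hold under every alternative. With centring on named genes COX13 came to 0.63 at 30 min. At 60 min COX4 came to 0.62 when the SD was matched. When the median absolute deviation was matched, COX4 came to 0.67 and COX13 to 0.62. All of them encode small subunits that surround the mitochondrially encoded catalytic core. COX4 (YGL187C) had 0.33 at 60 min and 0.37 at 30 min, and COX6 (YHR051W) had 0.23 at 60 min and 0.50 at 30 min. COX13 (YGL191W) had 0.31 at 60 min and 0.58 at 30 min, the highest of the complex at 30 min. COX7 (YMR256C) had 0.12 at 60 min and 0.39 at 30 min, and COX12 (YLR038C) had 0.28 at both times. COX8 (YLR395C) was closest to 0, with -0.05 at 60 min and -0.04 at 30 min. COX9 (YDL067C) was the lowest of the complex at 30 min, with 0.21 at 60 min and -0.36 at 30 min. With a spread this small and 1 array per time, the order of these genes cannot be told from measurement error.

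ATP synthase genes had small ratios, mostly above 0. At 60 min 12 of 13 were above 0 (49.4% of all features), the median was 0.29, and 6 lay above the upper quartile of all features (0.31). At 30 min 11 of 13 were above 0 (49.5% of all features), with a median of 0.31, and 1 lay above the upper quartile of 0.63. As deposited, none of the 13 genes was 2-fold from 0 at either time, and ATP7 (YKL016C) was the one past 1.5-fold, at 30 min. In the catalytic F1 head, the alpha subunit gene ATP1 (YBL099W) had 0.08 at 60 min and 0.14 at 30 min, and the beta subunit gene ATP2 (YJR121W) had 0.29 at 60 min and 0.31 at 30 min. The central stalk genes were ATP3 (YBR039W, gamma) with 0.43 at 60 min and 0.34 at 30 min, ATP16 (YDL004W, delta) with -0.07 at 60 min and 0.48 at 30 min, and ATP15 (YPL271W, epsilon) with 0.42 at 60 min and 0.17 at 30 min. The head and central stalk genes thus ranged from -0.07 to 0.43 at 60 min and from 0.14 to 0.48 at 30 min.

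The peripheral stalk of ATP synthase, which holds the head still, gave similar values. ATP4 (YPL078C) had 0.13 at 60 min and 0.35 at 30 min. ATP5 (YDR298C) had 0.33 at 60 min and 0.07 at 30 min, ATP7 had 0.42 at 60 min and 0.69 at 30 min, and ATP14 (YLR295C) had 0.15 at 60 min and 0.30 at 30 min. Of the small membrane subunits, TIM11 (YDR322C-A) and ATP20 (YPR020W), which take part in joining ATP synthase into dimers, had small values. TIM11 had 0.44 at 60 min and 0.38 at 30 min, and ATP20 had 0.21 at 60 min and -0.10 at 30 min. ATP17 (YDR377W) had 0.52 at 60 min and 0.58 at 30 min, and ATP18 (YML081C-A) had 0.26 at 60 min and -0.24 at 30 min. The 3 parts of the enzyme overlapped at both times, with medians from 0.24 to 0.35 at 60 min and from 0.14 to 0.32 at 30 min.

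Between the times, 28 of the 36 genes had a lower ratio at 60 min than at 30 min, where 49.5% of all features did. At least 2-fold lower were NDE2 (60 min minus 30 min difference -2.13), NDI1 (-1.42), SDH4 (-1.39) and SDH1 (-1.19), with 8.85% of all features this far down. No gene of the set was 2-fold higher at 60 min than at 30 min (11.6% of all features). NDE1 came nearest, with a difference of 0.87. Signs were opposite at the 2 times for 6 of the 36 genes (20.8% of all features). All 12 genes that were 2-fold higher at 30 min had a lower ratio at 60 min (97.0% of the features that passed at 30 min). All 12 still had ratios above 0 at 60 min (92.7% of those features), and NDE2 was the one still past 2-fold (32.7% of those features). They kept a median of 39.3% of their 30 min log2 value at 60 min, and all features that passed 2-fold upwards at 30 min kept a median of 41.8%. Since these 12 were picked out by their 30 min values, the drop is given as a description.

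**Figure D2:**
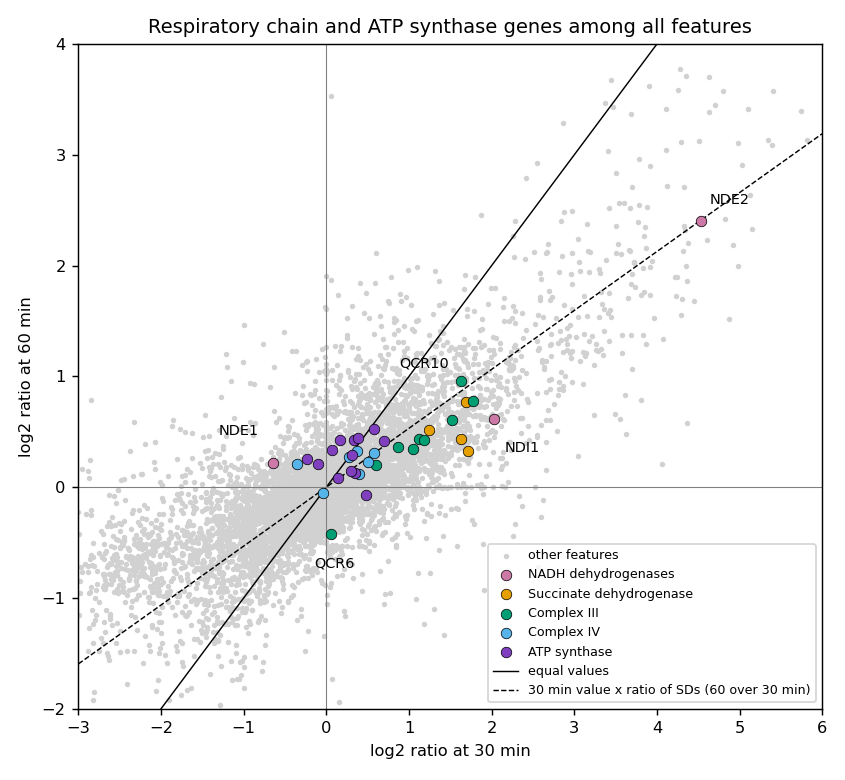
Log2 ratio at 60 min (y axis) against 30 min (x axis) for all features (grey) and the 36 genes coloured by complex, 1 array per time. The solid line marks equal values and the dashed line the 30 min value scaled by the ratio of the SDs, and 185 features lie outside the axes. Succinate dehydrogenase and complex III genes lie below the solid line, and NDE2 lies close to the dashed line.

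Which complexes were lower at 60 min depended in part on the scale of the arrays. When the 60 min values were multiplied by 1.88 to match the SD of the 30 min array, all 4 succinate dehydrogenase genes (median difference -0.54 rescaled and -1.06 as deposited) and 8 of 9 complex III genes (median -0.31 rescaled and -0.69 as deposited) were still lower at 60 min. For ATP synthase the sign of the median turned. As deposited, 7 of 13 genes were lower at 60 min (median -0.02), and after rescaling 10 of 13 were higher (median 0.40). Complex IV had 6 of 7 genes lower at 60 min as deposited and 4 of 7 after rescaling. Matching the median absolute deviation instead turned the median sign for complex IV (0.04) and the NADH dehydrogenases (0.33) too, and left those of succinate dehydrogenase (-0.47) and complex III (-0.25) negative. Of the whole set, 21 of 36 genes were lower at 60 min when the SD was matched and 19 when the median absolute deviation was. NDE2 came to 4.52 at 60 min on the rescaled array, next to 4.54 at 30 min. Over all features 48.4% were lower at 60 min after rescaling.

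The subunits encoded in mitochondrial DNA had higher ratios at 60 min than at 30 min, unlike most of the 36 nuclear genes as deposited. The 7 genes COX1, COX2, COX3, COB, ATP6, ATP8 and OLI1 had ratios from 0.55 to 1.15 at 60 min and from 0.18 to 0.41 at 30 min, without overlap, and each was higher at 60 min (50.0% of all features), also under both rescalings. ATP8 had the highest value at each time, 1.15 at 60 min and 0.41 at 30 min. Some of these genes are transcribed together, so they are not independent measurements.

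A further 10 lists, with 117 genes in all including those 7, covered partners and assembly factors of the chain, and regulators. At least 2-fold higher were 15 of the 117 at 60 min and 30 at 30 min, and 3 were 2-fold lower at 60 min and 5 at 30 min. Of all features, 6.67% were this high at 60 min and 15.8% at 30 min, and 4.32% were this low at 60 min and 17.3% at 30 min. Among the subunits and inhibitors outside the set (11 genes), 4 were at least 2-fold higher and none lower at 60 min, and 6 were higher and 2 lower at 30 min. The inhibitors of ATP hydrolysis by ATP synthase were in this group. INH1 had 1.01 at 60 min and 1.23 at 30 min, and its relative STF1 had 1.26 at 60 min and 1.87 at 30 min. STF2, described as a factor that helps the inhibitor bind, had 1.24 at 60 min and 2.91 at 30 min. The inhibitor genes were thus at least 2-fold higher at both times, while the 13 enzyme genes were within 2-fold as deposited.

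Other small or accessory subunits went in both directions. COX26, a small protein of complex IV supercomplexes, had 1.71 at 60 min and 3.65 at 30 min, far above the 7 complex IV genes of the set. ATP19, another small subunit of ATP synthase, had 0.11 at 60 min and -0.64 at 30 min. The supercomplex factors differed, with 0.49 at 60 min and 0.71 at 30 min for RCF1 and -0.69 at 60 min and -1.5 at 30 min for RCF2.

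The 3 paralogs of succinate dehydrogenase genes had higher ratios than the subunit genes themselves. YJL045W, a paralog of SDH1 that the reference table names SDH9, had 2.79 at 60 min and 2.42 at 30 min. SHH3 and SHH4, the paralogs of SDH3 and SDH4, had 1.95 (SHH3) and 1.81 (SHH4) at 60 min and 3.07 (SHH3) and 3.73 (SHH4) at 30 min. At each time these 3 genes lay above their succinate dehydrogenase counterparts, by 1.43 to 2.35 log2 units at 60 min and by 0.79 to 2.02 at 30 min. Probe sequences were not used here, and sharing of signal between paralogs was not tested.

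The isoform pairs used with and without oxygen did not all go the same way. The hypoxic form had the higher ratio for a complex IV subunit and for cytochrome c, and the lower ratio for the ADP/ATP carrier, where AAC3 lay below PET9 (differences of -1.52 at 60 min and -2.13 at 30 min). COX5B, the hypoxic form of subunit Cox5, had 0.76 at 60 min and 1.31 at 30 min, and the aerobic COX5A had -0.0049 at 60 min and 0.32 at 30 min. For cytochrome c, CYC7 had 0.83 at 60 min and 2.80 at 30 min, and CYC1, its main aerobic form, had -0.96 at 60 min and -2.97 at 30 min. CYC1 was the lowest gene of all 10 lists at 30 min, in contrast to the complex III genes on one side of it in the chain and the complex IV genes on the other.

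**Figure D3:**
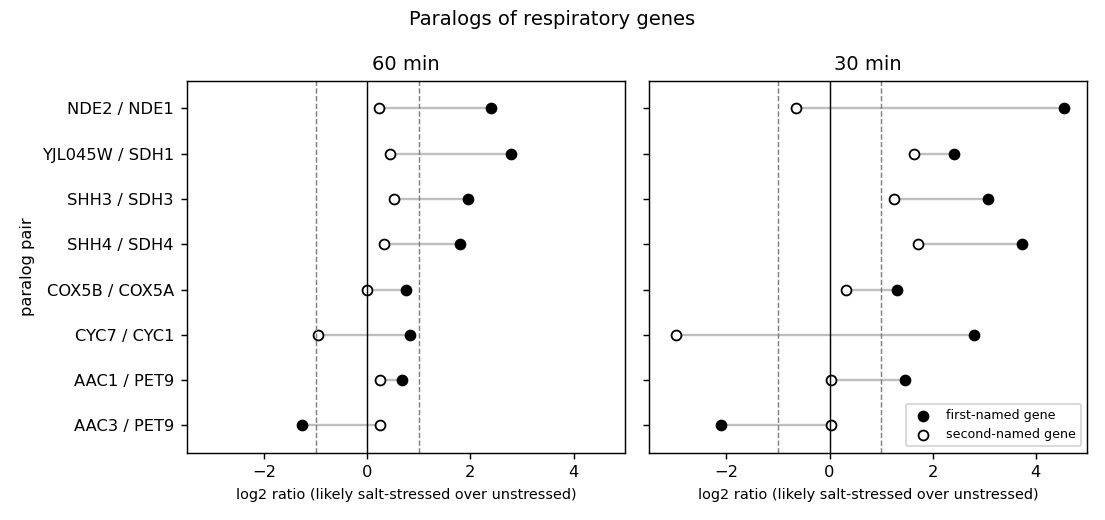
Log2 ratios (x axis) of paralog pairs (rows) at 60 min (left) and 30 min (right), 1 array each, with the first-named gene as a filled circle and the second as an open one. Dashed lines mark 2-fold. NDE2 lies above NDE1 and CYC7 above CYC1 at both times, with gaps of 5.19 and 5.78 log2 units at 30 min.

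Other enzymes that deliver electrons to the chain or work beside it gave mostly high ratios. Of these 9 genes, which include the SDH paralogs named above, 6 were at least 2-fold higher and 1 lower at 60 min, and 7 were higher and 1 lower at 30 min. The shares of all features were 6.67% higher and 4.32% lower at 60 min, and 15.8% and 17.3% at 30 min. GUT2, the mitochondrial glycerol-3-phosphate dehydrogenase, had 1.09 at 60 min and 2.63 at 30 min. CYB2, the L-lactate dehydrogenase that reduces cytochrome c, had 1.22 at 60 min and 3.11 at 30 min. MCR1, a mitochondrial NADH reductase, had 1.94 at 60 min and 3.18 at 30 min. The D-lactate dehydrogenase genes differed. DLD1 had 0.25 at 60 min and 1.03 at 30 min, DLD2 had 0.17 at 60 min and 0.28 at 30 min, and DLD3, a cytosolic enzyme, was the one 2-fold lower, with -1.83 at 60 min and -1.68 at 30 min.

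Ubiquinone synthesis makes the carrier between the dehydrogenases and complex III. None of its 11 genes was past 2-fold at 60 min as deposited (median 0.29), where 6.67% of all features were 2-fold higher. After matching the SD, 2 were at least 2-fold higher there, where 15.7% of all features were. At 30 min 5 were at least 2-fold higher (median 0.85), where 15.8% of all features were. The 5 were COQ4 (1.70 at 30 min), COQ3 (1.51), COQ6 (1.39), COQ9 (1.33) and COQ11 (1.01). COQ10, a ubiquinone-binding protein, and COQ2, which joins the ring to its tail, were the lowest. COQ10 had -0.53 at 60 min and -0.33 at 30 min, and COQ2 had -0.34 at 60 min and -0.32 at 30 min. All 11 were lower at 60 min than at 30 min, and 9 of 11 on the rescaled array.

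At 30 min 15.8% of all features were at least 2-fold higher. The assembly factor lists of complex III (8.33%), complex IV (12.9%) and ATP synthase (7.14%) were below this share. With lists this small, their counts are close to what this share would give. At the 1.5-fold size the order differed, with 16.7% of the complex III list, 38.7% of the complex IV list and 28.6% of the ATP synthase list higher. Of all features 26.6% were. For succinate dehydrogenase 1 of 5 was at least 2-fold higher at 60 min (6.67% of all features) and 3 were at 30 min. SDH6 had 1.14 at 60 min and 1.67 at 30 min, SDH8 had 0.59 at 60 min and 1.27 at 30 min, and SDH5, which attaches FAD to Sdh1, had 0.32 at 60 min and 1.17 at 30 min. SDH7 (0.11 at 60 min and 0.46 at 30 min) and the FAD carrier gene FLX1 (-0.28 at 60 min and -0.09 at 30 min) were the lowest of this list. For complex III none of 12 passed at 60 min and 1 did at 30 min, CBP4, with 0.45 at 60 min and 1.53 at 30 min. The next highest at 30 min was CBP6 (0.18 at 60 min and 0.67 at 30 min), and the lowest at 30 min were CBP1 (-0.21 at 60 min and -0.26 at 30 min) and CBP2 (-0.0093 at 60 min and -0.22 at 30 min), which act on the cytochrome b transcript. The lowest at 60 min was CYC3, the haem lyase gene of cytochrome c, with -0.87 at 60 min and -0.05 at 30 min, named after its values were seen.

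The assembly list of complex IV had 31 genes, of which none was at least 2-fold higher and 1 was lower at 60 min, and 4 were higher and 1 lower at 30 min. Over all features 6.67% were higher and 4.32% lower at 60 min, and 15.8% and 17.3% at 30 min. The higher genes were SCO2 (0.18 at 60 min and 1.39 at 30 min), COX20 (0.24 at 60 min and 1.29 at 30 min), SHY1 (0.21 at 60 min and 1.27 at 30 min) and the haem A synthase gene COX15 (0.41 at 60 min and 1.003 at 30 min). OXA1, the membrane insertase for mitochondrially encoded subunits, was the lower one at both times, with -1.28 at 60 min and -1.44 at 30 min. The next lowest was PET122, a translational activator of COX3, with -0.75 at 60 min and -0.47 at 30 min.

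For ATP synthase, 1 of 14 assembly and expression factors was at least 2-fold higher at 60 min (6.67% of all features) and 1 at 30 min (15.8%). These were different genes. NCA3 had 3.53 at 60 min (11.5-fold) and 0.05 at 30 min. NCA2 had 0.58 at 60 min and 1.56 at 30 min. Both are known to act together on the expression of ATP6 and ATP8. The other 12 factors lay from -0.31 to 0.51 at 60 min and from -0.43 to 0.95 at 30 min, the highest at 30 min being AEP3 (0.95) and the lowest ATP23 (-0.43) and INA17 (-0.14). The adjacent genes of NCA3 in the reference table, PHO86 and ASF1, had -0.28 (PHO86) and -0.49 (ASF1) at 60 min.

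**Figure D4:**
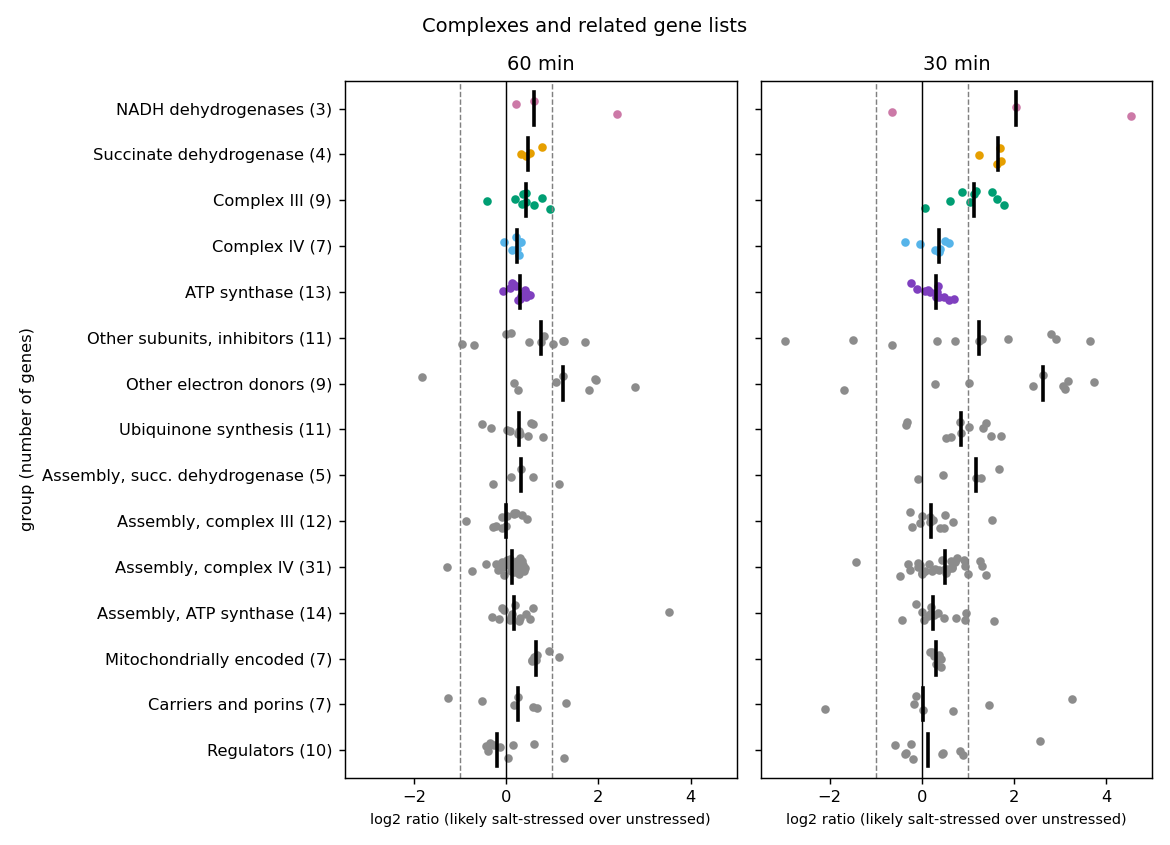
Log2 ratios (x axis) of the 5 complexes (coloured) and 10 related gene lists (grey) at 60 min (left) and 30 min (right), 1 array each, with 1 point per gene and a black bar at the median. Dashed lines mark 2-fold. At 30 min the medians of the NADH dehydrogenases (2.03), succinate dehydrogenase (1.66) and complex III (1.13) lie past 2-fold, and those of complex IV (0.37) and ATP synthase (0.31) do not.

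Carriers that supply ATP synthase with ADP and phosphate differed by isoform. Of 7 carrier and porin genes, 1 was at least 2-fold higher and 1 lower at 60 min, and 2 were higher and 1 lower at 30 min. Of all features, 6.67% were this high and 4.32% this low at 60 min, and 15.8% and 17.3% at 30 min. With 7 genes, counts of 1 or 2 are close to what these shares would give. PET9, the main ADP/ATP carrier gene, had 0.25 at 60 min and 0.02 at 30 min. Its paralog AAC1 had 0.67 at 60 min and 1.46 at 30 min, and AAC3, the form used without oxygen, had -1.27 at 60 min and -2.11 at 30 min. The phosphate carrier gene MIR1 had 0.17 at 60 min and -0.13 at 30 min, and PIC2, a second mitochondrial carrier of phosphate, had 1.29 at 60 min and 3.26 at 30 min. POR2, a paralog of the porin gene POR1, had -0.53 at 60 min and -0.17 at 30 min, and POR1 had 0.59 at 60 min and 0.67 at 30 min.

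Among the 10 genes of the regulator list, CAT8, an activator used in growth without glucose, was the one past 2-fold as deposited. It had 1.26 at 60 min and 2.57 at 30 min. At least 2-fold higher were 6.67% of all features at 60 min and 15.8% at 30 min. After either rescaling 2 regulators passed at 60 min, the second being HAP4. Of all features, 15.7% were this high there when the SD was matched and 16.8% when the median absolute deviation was. Read as natural logs, 3 regulators passed at 30 min, for which no share of all features was computed. HAP4, the limiting activating subunit of the Hap complex, had 0.61 at 60 min and 0.44 at 30 min. Of the DNA-binding subunits, HAP2 had 0.03 at 60 min and 0.90 at 30 min, HAP3 had -0.36 at 60 min and -0.35 at 30 min, and HAP5 had -0.45 at 60 min and 0.83 at 30 min. HAP1, the haem-responsive activator, had 0.14 at 60 min and 0.47 at 30 min. The repressor genes of this list were ROX1 (-0.14 at 60 min and -0.59 at 30 min), MOT3 (-0.27 at 60 min and -0.24 at 30 min), MIG1 (-0.38 at 60 min and -0.19 at 30 min) and OPI1 (-0.34 at 60 min and -0.38 at 30 min). All of these repressor genes were below 0 at both times. Taken for each time singly, 49.5% of all features were below 0 at 60 min and 49.6% at 30 min. The activator gene HAP3 was below 0 at both times too. Of the 10 genes of the list, 6 were below 0 at 60 min and 5 at 30 min. Whether these repressors act on genes of the set was not tested.

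Position and length were compared with the values as properties that the choice of genes did not use. No gene of the set overlaps another gene in the reference table. Of 24 directly adjacent genes on the array beside the 12 that were 2-fold higher at 30 min, 5 were also 2-fold higher and 3 were 2-fold lower at 30 min, with a median of 0.04. Beside all 36 genes, 8 of 70 adjacent genes were 2-fold higher and 16 were 2-fold lower at 30 min. Of all features, 15.8% were this high and 17.3% this low. Both neighbours of NDE2 had negative ratios, YDL085C-A with -0.53 at 60 min and -0.76 at 30 min and SUB2 with -0.32 at 60 min and -1.17 at 30 min. The 18 longer genes (483 to 1923 bases) had medians of 0.39 at 60 min and 0.96 at 30 min, with 9 of them 2-fold higher at 30 min. The 18 shorter genes (180 to 468 bases) had medians of 0.27 at 60 min and 0.37 at 30 min, with 3 of them 2-fold higher. The part of gene length in the differences between complexes was not tested.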

How the data were processed

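The authors' deposited log2 ratios, 1 per feature and array, were used for 6868 features on 2 arrays, with no column left out. No scanner intensities were used, and the build, background correction, normalization and probe summary were not given in the sources used here. Base 2 was assumed from the range (-5.16 to 8.32). Both arrays have a median of 0. Exactly 0 was listed for 75 features at 60 min and 63 at 30 min, which were left out of medians and kept in counts. Names were taken from the R64 gene table, which 5984 features matched, 5267 of them with a symbol. No coordinates are given because the array's build is unknown.

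Counts past 2-fold and 1.5-fold, medians, and 60 min minus 30 min values were computed with Python 3.11.15, numpy 2.4.6 and pandas 2.3.3, and drawn with matplotlib 3.10.9. The counting was tested on simulated data. No p-value was computed, and the number of arrays limits the precision. Alternatives were another centring, rescaling of the 60 min array, features listed at 0, and a natural log. The genes, lists and the rule for named genes (every gene of the set and of 4 lists, and of each other list the 2 highest, the 2 lowest and up to 5 past 2-fold) were chosen with earlier results of these data known. PET9, MIR1, POR1 and CYC3 fall outside the naming rule. They, the adjacent genes and the gene length split were added after the values were seen. The pooling of complexes into groups of 16 and 20 genes was not planned either.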

Additional observations from a re-analysis of the deposited data

Results flagged for a closer look

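Some genes had ratios of opposite sign on the 60 min and 30 min arrays. This held for 6 of the 36 genes (16.7%) and for 20.8% of all features, and with 1 array per time the difference between the times was not tested. In the set, ATP16 had -0.07 at 60 min and 0.48 at 30 min, a difference of -0.55. The other ATP synthase genes were ATP18, with a 60 min minus 30 min difference of 0.49, and ATP20, with 0.32. QCR6 differed by -0.48, COX9 by 0.57 and NDE1 by 0.87. Among partners and regulators, COX5A differed by -0.32, ATP19 by 0.75, HAP5 by -1.28 and the phosphate carrier gene MIR1 by 0.30. Over the 10 lists, 18 of 117 genes had opposite signs (15.4%), of which 14 are assembly factors. Of the genes named here, HAP5 was the one whose times lay more than 2-fold apart.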

How the results depend on the processing

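No paired analysis was possible because there is 1 array per time and no replicate, and no replicate could be left out. Keeping features listed at 0 changed no value. Centring on named genes (medians over the named genes of -0.02 at 60 min and -0.05 at 30 min) left every count and median over the set and the pooled lists within 1.5 times. The medians of the complexes at each time and their 2-fold counts also stayed within 1.5 times. Their median 60 min minus 30 min differences did not all stay so. That of ATP synthase was -0.02 as deposited and -0.05 centred, and that of complex IV was -0.04 as deposited and -0.07 centred. At 30 min COX13 and ATP17 then passed 1.5-fold, and COX8 changed sign to 0.013. Rescaling the 60 min array to the SD (or, in brackets, the median absolute deviation) of the 30 min array, by 1.88 (2.02), moved most 60 min values by construction. Genes of the set at least 2-fold higher at 60 min then numbered 6 (8), where 15.7% (16.8%) of all features were this high. By complex these were 2 (2) NADH dehydrogenases, 1 (2) of succinate dehydrogenase, 3 (3) of complex III, 0 (0) of complex IV and 0 (1) of ATP synthase, the last being ATP17 at 1.05. At least 1.5-fold higher were 20 (22) and lower 1 (1). The median of the set was 0.63 (0.67), that of ATP synthase 0.55 (0.59), complex III 0.80 (0.86), complex IV 0.43 (0.46), succinate dehydrogenase 0.90 (0.97) and the NADH dehydrogenases 1.16 (1.24). The median 60 min minus 30 min difference was -0.040 (-0.021), with 1 (1) gene at least 2-fold lower. Over the 117 list genes the 60 min median was 0.39 (0.42), with 30 (32) higher and 7 (9) lower, among them all 7 (7) mitochondrially encoded genes, 2 (3) ubiquinone synthesis genes, 3 (3) carriers and 2 (2) regulators higher. Read as natural logs, the 60 min ratios gave 4 genes of the set at least 2-fold higher, where 11.7% of all features were. In the set, 15 genes were then at least 1.5-fold higher and 1 was lower, with no share of all features computed. Of the list genes, 6 were 2-fold lower, where 10.6% of all features were. At 30 min no count over the set or the pooled lists moved by over 1.5 times under this reading. Which array scale is nearer the truth was not tested.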
